A study of Drosophila melanogaster with 2 samples.

Results

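The nuclear transfer RNA (tRNA) genes of Drosophila melanogaster were examined for binding sites of the forkhead transcription factor fd59A. They were taken from the Ensembl annotation as every gene of biotype tRNA on the 7 main chromosome arms, which gave 290 of 18277 genes, with transposable elements not counted. The 22 mitochondrial tRNA genes were left out. The source was ChIP-seq (sequencing of DNA bound to an immunoprecipitated protein), as lists of called regions, on whole prepupae of the fd59A-GFP strain, a transgenic line that makes fd59A with a C-terminal eGFP tag, precipitated with an antibody against GFP. The 2 libraries, biological replicates 2 and 3, form 1 group of pooled males and females with a labelled age of 24 day. The antibody label of both libraries reads fd59A, the tagged protein. Both came from 1 donor line, and their chromatin was sonicated to 200 to 800 bp. Whole animals mix all cell types, and no control library is among the samples, so fd59A and other sources of signal cannot be told apart at any peak. Counts below therefore describe listed regions and are not a comparison between conditions.

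A tRNA carries an amino acid to the ribosome and reads a codon through its anticodon. tRNA genes are short and are transcribed by RNA polymerase III from a promoter inside the gene, made of an A box and a B box that bind the factor TFIIIC. TFIIIC places TFIIIB just upstream of the start, TFIIIB recruits the polymerase, and a run of T on the coding strand ends the transcript. fd59A is a forkhead-box protein, a family whose usual DNA site resembles GTAAACA and which acts mainly on genes of RNA polymerase II. tRNA genes are highly expressed, repeated and often grouped, and a sequenced read that lies wholly within an exact copy cannot be assigned to 1 copy.

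The 290 genes covered 22 isotypes (initiator methionine and selenocysteine counted apart) and 44 anticodons. Their median length was 73 bp, with a range of 71 to 186 bp. Genes less than 1 kb apart formed 174 clusters, of which 105 held a gene alone and the largest held 7. The 290 genes had 95 distinct sequences, and 238 genes had at least 1 identical copy on the main arms, up to 13 genes with the same sequence. A protein-coding start site lay within 500 bp of 33 genes, and 134 genes lay inside a protein-coding gene.

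Gene sequences are given for the strongest site (Tyr-GTA-1-8), for both single-gene clusters with a peak whose sequence occurs at 1 place only (Gln-TTG-2-1, Lys-TTT-1-1), and for the gene with a pooled summit inside it (Arg-TCT-3-1). They were read from RefSeq Release 6 (dm6), 5′ to 3′ on the gene strand. Capitals mark the B box letters GTTCNANNC, which were searched on the gene strand. These letters occurred in 271 of 290 tRNA genes (93.4%), against 2.06% of the 73-bp windows tiling the main arms on either strand. The Tyr gene is longer than the others, and tyrosine tRNA genes are known to carry a short intron. The positions were chr3R:8669081-8669174 on the minus strand for Tyr-GTA-1-8, chrX:3427452-3427523 on the minus strand for Gln-TTG-2-1, chr2L:8290727-8290799 on the plus strand for Lys-TTT-1-1 and chr2L:2187007-2187079 on the plus strand for Arg-TCT-3-1.
tRNA:Tyr-GTA-1-8: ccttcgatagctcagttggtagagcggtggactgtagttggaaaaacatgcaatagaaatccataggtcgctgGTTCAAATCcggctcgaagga
tRNA:Gln-TTG-2-1: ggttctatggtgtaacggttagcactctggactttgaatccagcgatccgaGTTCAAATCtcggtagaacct
tRNA:Lys-TTT-1-1: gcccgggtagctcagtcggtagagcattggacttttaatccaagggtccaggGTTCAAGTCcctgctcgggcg
tRNA:Arg-TCT-3-1: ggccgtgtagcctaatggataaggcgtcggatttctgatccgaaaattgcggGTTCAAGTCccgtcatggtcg

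The peaks themselves sat beside the genes, so the 101 bp centred on each IDR summit are shown for the first 3 of these, on the strand of the tRNA gene, with the summit base in capitals. All 3 windows lie in introns and hold none of the 6 motifs searched. Their GC content was 31.7% at Tyr-GTA-1-8 (chr3R:8669331-8669431), 32.7% at Gln-TTG-2-1 (chrX:3427679-3427779) and 39.6% at Lys-TTT-1-1 (chr2L:8291024-8291124). The genes they flank had 47.9%, 47.2% and 58.9% GC.
Tyr-GTA-1-8 summit window: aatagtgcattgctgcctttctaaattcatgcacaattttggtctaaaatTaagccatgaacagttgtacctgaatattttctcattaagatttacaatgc
Gln-TTG-2-1 summit window: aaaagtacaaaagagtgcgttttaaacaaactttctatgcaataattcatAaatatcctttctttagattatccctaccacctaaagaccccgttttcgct
Lys-TTT-1-1 summit window: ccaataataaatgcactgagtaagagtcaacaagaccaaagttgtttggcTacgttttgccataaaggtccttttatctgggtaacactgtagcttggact

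Few tRNA genes had a reproducible fd59A peak beside them. The authors' IDR list, thresholded by the irreproducible discovery rate (which scores the repeatability of a peak across libraries), held 5327 summits on the main arms. A summit, the point of highest signal of a peak, lay within 500 bp of 7 of the 290 tRNA genes (2.41%, Wilson 95% interval 1.17 to 4.9). Under the same rule 17.8% of all genes and 20.4% of protein-coding genes had one. Those genes are longer, so windows of 1073 bp, as long as a median tRNA gene with 500 bp to either side, give the nearer background, and 3.85% of them held an IDR summit. Each of the 7 genes belonged to a different cluster, which made 7 of 174 clusters (4.02%, interval 1.96 to 8.07). The interval for genes includes the windows' share, so the count is not distinguishable from the background. The 7 summits were 0.131% of the IDR list. Intervals cover counting error only, and sequencing depth is unknown because the lists give no read totals.

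The strongest of the 7 lay beside Tyr-GTA-1-8, which carries tyrosine. The signal, the authors' score of a region in their own units, was 307 in replicate 2 and 385 in replicate 3, and 689 in the pooled data, rank 350 of 5327. Its summit was 207 bp upstream of the tRNA gene, in an intron shared by the overlapping genes CG8036 and p (pink), and 237 bp from a start site of CG8036. The gene is the outermost of a cluster of 3 tyrosine tRNA genes. At Gln-TTG-2-1, a glutamine tRNA gene alone in an intron of CG12535, the signal was 183 in replicate 2 and 272 in replicate 3. The pooled value was 457 (rank 770), and the summit lay 206 bp upstream and 8078 bp from the nearest coding start site. At Lys-TTT-1-1, a lysine tRNA gene alone in an intron of the tyrosine kinase gene Btk, the values were 147 in replicate 2, 216 in replicate 3 and 369 in the pooled data (rank 1109), with the summit 275 bp downstream of the gene. The nearest coding start site, that of Btk, was 6050 bp from the Lys summit. All 3 genes have a sequence that occurs at no other place on the main arms.

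The other 4 sites were weaker. Arg-TCG-3-4, an arginine tRNA gene at the end of a cluster of 7 on X, had 67.6 in replicate 2, 125 in replicate 3 and 195 pooled (rank 2625), with the summit 326 bp downstream in intergenic DNA. Pro-AGG-1-2, of a cluster of 3 proline tRNA genes on 2L, had 84.2 in replicate 2, 105 in replicate 3 and 184 pooled (rank 2834), with the summit 424 bp upstream. Phe-GAA-1-2, a phenylalanine tRNA gene alone on X, had 70.5 in replicate 2, 97.8 in replicate 3 and 179 pooled (rank 2943). Its summit was 249 bp downstream of the tRNA gene but 16 bp from a start site of the ribosomal protein gene RpL17, inside an RpL17 exon. His-GTG-1-3, of a cluster of 3 histidine tRNA genes on 2R, had 47.4 in replicate 2, 74.0 in replicate 3 and 128 pooled (rank 4292), with the summit 167 bp upstream and 83 bp from a start site of CG8490. The IDR list had a median pooled signal of 193 and a lowest value of 106, so 4 of the 7 lay above the median. Within each list the first 3 sites stood above the other 4.

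Replicates 2 and 3 placed these summits close together, as they did for most of the IDR list, which is chosen for repeatability: 4938 of its 5327 peaks had a summit within 100 bp in both libraries. The replicate summits were 0 to 24 bp from the IDR summit at all 7 sites. The authors' −log10 q value was 3.93 at each of the 7, the maximum of the pooled list, so it does not rank them. Only at His-GTG-1-3 did the peak interval, 424 bp wide, overlap the tRNA gene itself. At the other 6 the interval did not reach the tRNA gene it was assigned to.

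**Figure D1:**
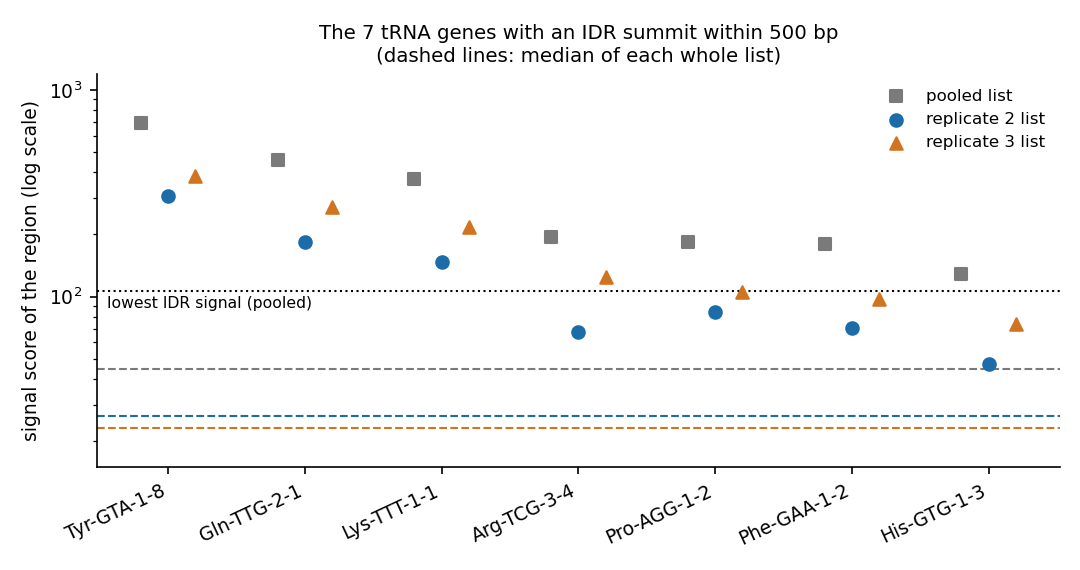
Signal score of the region at each of the 7 tRNA genes with an IDR summit, in the pooled, replicate 2 and replicate 3 lists (log axis, no error bars because each point is 1 list). Tyr-GTA-1-8 is highest in every list (689, 307 and 385) and His-GTG-1-3 lowest (128, 47.4 and 74.0), and all points lie above the median of their own list, drawn as a dashed line.

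The lists that also hold weaker regions gave more tRNA genes. Within 500 bp no list's interval for genes lay above the share of windows. The authors label the pooled list as peaks and background used as input for IDR, so listed regions need not be significant peaks. At tRNA genes the −log10 q value went down to 0.0232 in the pooled list, 0.0298 in replicate 2 and 0.082 in replicate 3. In the pooled list 42 of 290 tRNA genes (14.5%, interval 10.9 to 19.0) had a summit within 500 bp, against 46.1% of all genes and 19.5% of windows. In replicate 2 it was 41 genes (14.1%, 10.6 to 18.6), against 48.8% of all genes and 19.2% of windows. In replicate 3 it was 58 genes (20%, 15.8 to 25), against 45.5% of all genes and 19.7% of windows. The pooled and replicate 2 intervals lay below the windows' share and the replicate 3 interval included it. Clustered genes share summits, so these intervals are too narrow. By cluster the shares were 21.3% pooled (15.8 to 27.9), 21.8% in replicate 2 (16.3 to 28.5) and 26.4% in replicate 3 (20.4 to 33.4). The first 2 intervals include the windows' share and the third lies above it, but clusters of several genes cover more bases than a window. Counted per base within 500 bp, the pooled list had 0.176 summits per kb (0.126 to 0.238), against 0.212 over the main arms. Replicate 2 had 0.18 (0.13 to 0.243), against 0.204. Within 1000 bp the pooled share was 31.7% (26.6 to 37.3) and the replicate 2 share 31.0% (26.0 to 36.6), beside 31.6% and 31.7% of windows of that reach. The replicate 3 share was 39.7% (34.2 to 45.4), above 31.7% of windows, so the comparison with windows changes with the distance and the library. In no list did a summit come within 500 bp of 217 of the 290 genes, or of 114 of the 174 clusters.

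snoRNA genes, another class of short noncoding genes, gave a share of the same order as tRNA genes. Of 269 snoRNA genes, 7 had an IDR summit (2.6%, interval 1.27 to 5.27) and 36 a pooled summit (13.4%, 9.83 to 18.0). For replicate 2 the snoRNA share was 21.2% (16.7 to 26.5), and for replicate 3 it was 12.6% (9.19 to 17.1). The order of the libraries was thus opposite for tRNA genes and snoRNA genes, with tRNA genes higher in replicate 3 and snoRNA genes higher in replicate 2. That difference was not tested.

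**Figure D2:**
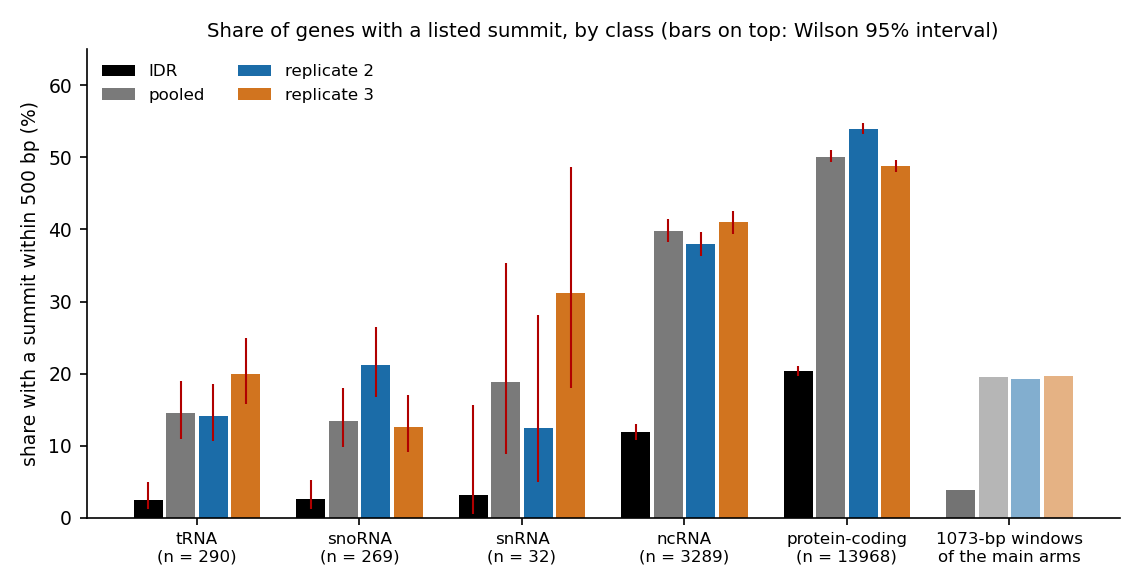
Share of genes (%) with a summit within 500 bp, for 5 gene classes in the 4 lists, with Wilson 95% intervals, and the share of 1073-bp windows of the main arms (paler bars, no interval). tRNA genes (2.41% in the IDR list, 14.5% pooled) lie near the snoRNA genes and the windows, and below the protein-coding genes (20.4% in the IDR list), which are longer.

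Summits were sparse at the tRNA genes themselves and reached the density of the main arms between 101 and 500 bp away. No IDR summit lay inside a tRNA gene or within 100 bp of one. The pooled list had 4 summits in the 77967 bp that are inside a tRNA gene or at most 100 bp from one. That is 0.0513 summits per kb (exact Poisson 95% interval 0.014 to 0.131), against 0.212 over the main arms. Replicate 2 had 1 such summit (0.0128 per kb, 0.000325 to 0.0715, against 0.204), and replicate 3 had 7 (0.0898 per kb, 0.0361 to 0.185, against 0.218). In all 3 lists the interval lay below the density of the main arms. From 101 to 500 bp away the densities were 0.238 per kb in the pooled list, 0.264 in replicate 2 and 0.296 in replicate 3, with all 3 intervals including the density of the main arms. For the IDR list the 0 summits within 100 bp allow up to 0.0473 per kb, which includes the 0.0387 per kb of the main arms. Farther out, at 2001 to 5000 bp from a tRNA gene, the pooled list had 0.314 summits per kb (0.277 to 0.355) and the IDR list 0.0645 (0.0485 to 0.0842). Both lay above the main arms as a whole.

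The same step was seen at snoRNA genes and not at protein-coding start sites. Within 100 bp of a snoRNA gene the pooled list had 0.0547 summits per kb (0.0149 to 0.14). Within 100 bp of a protein-coding start site it had 0.453 per kb (0.432 to 0.476). At the 52 tRNA genes with no identical copy the pooled density within 100 bp was 0.135 per kb, from 2 summits, and its interval (0.0163 to 0.487) included the density of the main arms. How reads that match several places were treated is not given in the sources used here, and the part that identical copies play in the low density was not tested. At the tRNA genes with no coding start site within 1000 bp the pooled density was 0.0707 per kb (0.0193 to 0.181), from 4 summits. In replicate 3 it was 0.106 there (0.0389 to 0.231), an interval that includes the 0.218 of the main arms, and in replicate 2 it was 0.0177 (0.000447 to 0.0985).

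**Figure D3:**
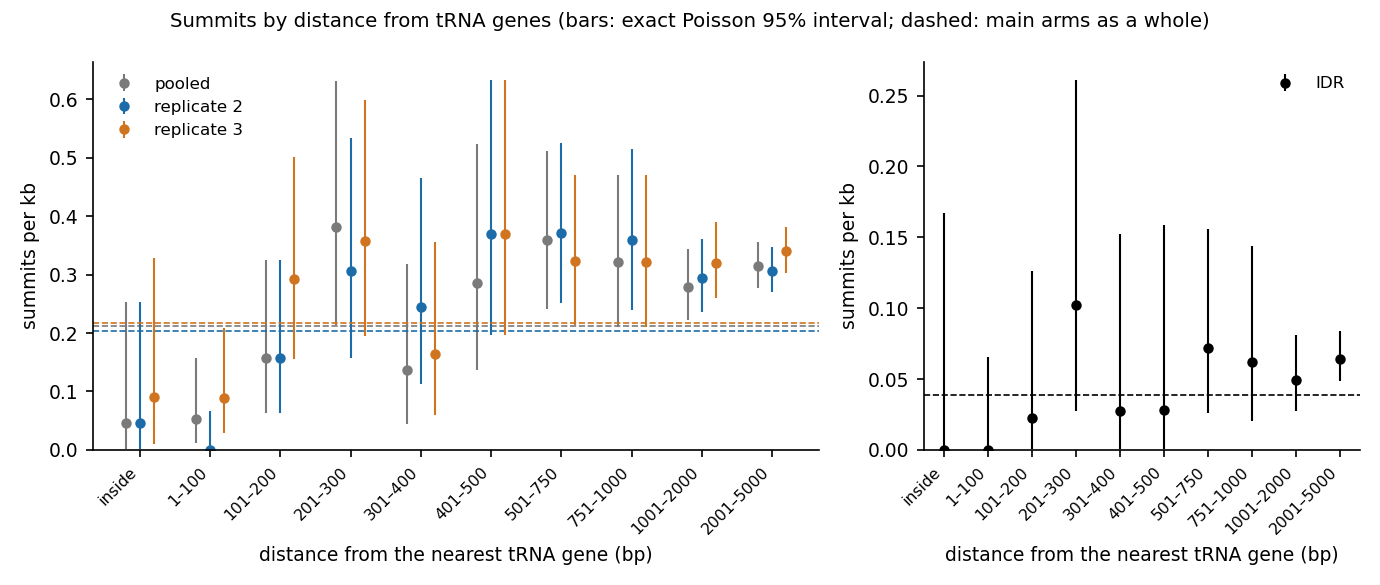
Summits per kb by distance from the nearest tRNA gene, for the pooled and single-library lists (left) and the IDR list (right), with exact Poisson 95% intervals; dashed lines give the density over the main arms. Points inside the genes and at 1 to 100 bp lie below the dashed lines (0.0513 per kb pooled over both bins, against 0.212), those at 101 to 500 bp fall on both sides of them, and those at 2001 to 5000 bp lie above (0.314 per kb pooled).

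Neither side of the tRNA gene was clearly favoured. Of the 7 IDR summits 4 lay upstream of the nearest tRNA gene and 3 downstream, a share upstream of 57.1% (interval 25 to 84.2). In the pooled list 25 of 41 summits lay upstream (61.0%, 45.7 to 74.3), 15 downstream and 1 inside. In replicate 2 it was 24 of 42 upstream (57.1%, 42.2 to 70.9) and in replicate 3 27 of 53 (50.9%, 37.9 to 63.9). All 4 intervals include 50%.

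The pooled summit inside a gene was that of Arg-TCT-3-1, whose sequence is given above and occurs nowhere else on the main arms. It sat at base 71 of the 73 bases of the gene, beyond the B box letters at bases 53 to 61. The signal there was 32.4 in replicate 2 (rank 9408 of 28127), where the summit was also inside the gene, and 30.8 in replicate 3 (rank 10766 of 30000), where it was 16 bp past the 3′ end. The pooled value was 70.8, rank 8226, below the lowest IDR signal of 106. Replicate 3 alone had summits inside Pro-AGG-1-7 (signal 14.3) and Arg-TCG-2-1 (14.6), both close to the lowest value of its list, 14.0.

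Below the IDR threshold the pooled list had 34 more summits at tRNA genes, with signals of 29.7 to 99.4 and a median of 51.0. Their −log10 q values ran from 0.0232 to 2.21, below the list's maximum of 3.93. Of the 34 summits, 19 had a summit within 100 bp in both libraries, 5 in replicate 2 only, 9 in replicate 3 only and 1 in neither. The strongest was at Val-CAC-2-5, a valine tRNA gene in an intron of Naam, with 31.4 in replicate 2, 62.9 in replicate 3 and 99.4 pooled. Ala-AGC-2-1, an alanine tRNA gene in an intron of the kinase gene nmo, followed with 50.2 in replicate 2, 47.2 in replicate 3 and 97.2 pooled. Its summit was 28312 bp from the nearest coding start site, while that at Val-CAC-2-5 was 431 bp from a start of Naam. These sites were picked by their values, outside the rule for naming genes.

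The largest groups of tRNA genes were not the places with most signal. Of the 5 clusters with most genes, only the 7-gene Arg-TCG and Ser-CGA cluster on X had an IDR summit, at its outer end beside Arg-TCG-3-4. The 7-gene Ile-AAT and Leu-CAA cluster on 2R had a single weak region, in replicate 3 (17.6). The 6-gene Cys-GCA and Lys-CTT cluster on 3L, in an intron of the chitinase gene Cht7, had 73.6 in replicate 3 (rank 4328), 85.2 pooled and no listed summit in replicate 2. The 6-gene Asn-GTT and Arg-ACG cluster on 3R and the 5-gene Arg-ACG, Asn-GTT and Lys-CTT cluster on 2R had none in any list. Among the 105 genes standing alone 21 had a pooled summit (20%, interval 13.5 to 28.6), near the 19.5% of windows. Among the 185 in clusters it was 21 (11.4%, 7.55 to 16.7). The 185 genes form 69 clusters and can share a summit, so their interval is too narrow. The shares alone and in clusters were 22.9% and 9.19% in replicate 2, but 22.9% and 18.4% in replicate 3.

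Across clusters, the signals of the shared sites were correlated between the libraries, but each library had clusters within reach that the other did not. Replicate 2 listed a region at 38 clusters (21.8%) and replicate 3 at 46 (26.4%), with 25 in common, which is 65.8% of those of replicate 2 and 54.3% of those of replicate 3. In 23 of the 25 the summits lay within 100 bp of each other. Over these 25 clusters Spearman's rho between the strongest signals was 0.758 and Pearson's r of log2 signal was 0.903, as a description. All 7 IDR sites are among them and hold the 7 highest values in replicate 3. In replicate 2 the shared site at Ala-AGC-2-1 (50.2) stood above the lowest of them, His-GTG-1-3 (47.4). The IDR list is chosen for repeatability, so the 7 IDR sites agree between the libraries by selection. No correlation was computed without them. By summit, 26 of 42 tRNA summits of replicate 2 (61.9%) had a replicate 3 summit within 100 bp, against 43.8% over its whole list. For replicate 3 it was 25 of 53 (47.2%), against 41.1%.

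Some clusters counted for 1 library because of the distance rule. Of the 13 for replicate 2 alone, 3 had a replicate 3 summit within 100 bp that fell past the 500 bp, and of the 21 for replicate 3 alone, 1 had such a replicate 2 summit. The strongest was beside Ile-AAT-1-8, an isoleucine tRNA gene on 2R. Its region had 69.5 in replicate 2, with the summit 463 bp from the gene, and 112 in replicate 3, with the summit 512 bp away. The same region is an IDR peak of 179 (rank 2928) at 514 bp, just outside the rule. Other regions were listed by 1 library only and were not weak. The Trp-CCA-2-2 and Gly-GCC-1-9 pair had 60.5 in replicate 3 (rank 5341 of 30000), and the 4-gene Glu-TTC and Glu-CTC cluster that starts with Glu-TTC-1-5 had 54.9 (rank 5924). The replicate 2 and pooled lists had no summit within 500 bp of either. The replicate 3 list holds exactly 30000 regions. These sites too were chosen by their values. The median rank of sites found in replicate 2 alone was 12634, against 9408 for its shared sites, and in replicate 3 alone 21003 against 8092.

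**Figure D4:**
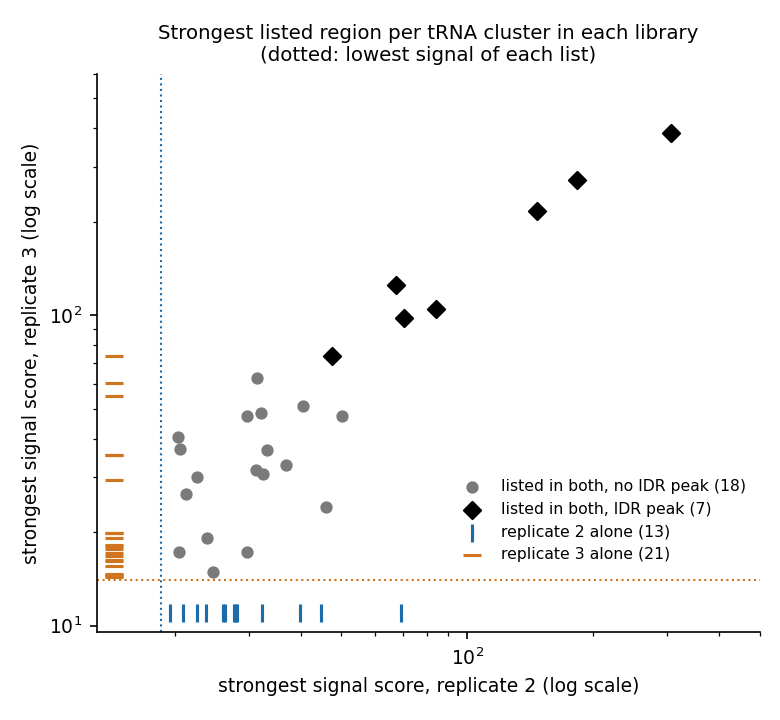
Strongest signal score per tRNA cluster in replicate 2 (x axis) and replicate 3 (y axis), both on log axes, for the 25 clusters listed in both; ticks along the axes are the 13 clusters of replicate 2 alone and the 21 of replicate 3 alone. The 7 clusters with an IDR summit (diamonds) lie at the upper right, from 47.4 and 74.0 to 307 and 385.

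By isotype, the 7 IDR sites were spread over 7 of the 22 isotypes, with 1 gene each for Arg, Gln, His, Lys, Phe, Pro and Tyr. In the pooled list 17 isotypes had at least 1 gene with a summit. The counts were highest for Arg, 7 of 26 genes (26.9%, interval 13.7 to 46.1), Ala, 5 of 17 (29.4%, 13.3 to 53.1), and Leu, 5 of 22 (22.7%, 10.1 to 43.4). The Cys genes reached 4 of 7, but 3 of these share the region in Cht7. The 6 initiator methionine genes, whose tRNA starts translation, and the selenocysteine gene had no summit in any list. With so few genes per isotype, these intervals overlap widely and include the windows' share of 19.5% for Arg, Ala and Leu.

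By chromosome arm, X had the highest share, 3 of 24 tRNA genes with an IDR summit (12.5%), against 4.23% of windows on X. 2L had 2 of 41 (4.88%), 3R 1 of 79 (1.27%), 2R 1 of 98 (1.02%) and 3L 0 of 48. 3 genes are too few to rank the arms, and the 3 X sites share no cluster. In the pooled list the shares ran from 10.2% on 2R (10 of 98, interval 5.64 to 17.8) to 22.0% on 2L (9 of 41, 12 to 36.7), where 18.9% and 21.8% of the arms' windows held a summit. 2R holds the most tRNA genes, and its pooled interval lay below its windows' share. The 98 genes form 54 clusters and share summits, so that interval is too narrow. In replicate 2 the share on 2R was 11.2%, against 19.3% of its windows, but in replicate 3 it was 18.4%, against 18.7%.

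A nearby protein-coding start site moved with the IDR count. Of the 33 tRNA genes with a coding start within 500 bp, 3 had an IDR summit (9.09%), and of the 257 without, 4 (1.56%). Windows of the main arms showed the same direction, with 9.55% of those holding a coding start site and 3.09% of those without. Among the 3 such genes the summit was nearer to the coding start than to the tRNA gene at Phe-GAA-1-2 (16 bp against 249) and His-GTG-1-3 (83 bp against 167), and not at Tyr-GTA-1-8 (237 bp against 207). What the coding starts contribute to these sites was not tested. In the pooled list the shares were 18.2% (6 of 33, interval 8.61 to 34.4) with a coding start and 14.0% (36 of 257, 10.3 to 18.8) without. These intervals overlap. In replicate 2 the shares were 33.3% (11 of 33) with and 11.7% (30 of 257) without, beside 29.2% and 17.8% of windows. In replicate 3 they were 30.3% (10 of 33) and 18.7% (48 of 257), beside 31.5% and 18.1% of windows. By place, a pooled summit lay at 24 of 134 genes inside (17.9%, 12.3 to 25.3) and 18 of 156 outside (11.5%, 7.42 to 17.5). Genes with a sequence of their own had an IDR summit in 3 of 52 cases (5.77%), and genes with an identical copy in 4 of 238 (1.68%). The share of all windows, 3.85%, lies between these values. With 3 and 4 genes the shares cannot be told apart, and the difference was not tested. In the pooled list the intervals for genes with and without a copy overlap.

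Base composition differed sharply between tRNA genes and the summits of the IDR list. tRNA genes had 58.1 ± 4.34% GC (SD, n = 290), and with 500 bp to either side 38.4 ± 3.5%, against 42.1 ± 6.06% for windows of the main arms (n = 127474 without unknown bases). The 101 bp around the IDR summits had 33.4 ± 8.4% GC over all 5327 and 35.8 ± 8.03% at the 7 tRNA genes. Pooled summits were not AT-rich in this way. Their 101 bp had 41.4 ± 10.5% GC over all 29208 and 41.9 ± 9.23% at the 41 beside tRNA genes, near the 42.1% of windows. The tRNA flanks were AT-rich, with 24.6% GC at 100 to 124 bp after the 5′ end, just past most genes. Whether base composition contributes to the low density of summits at the genes was not tested.

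**Figure D5:**
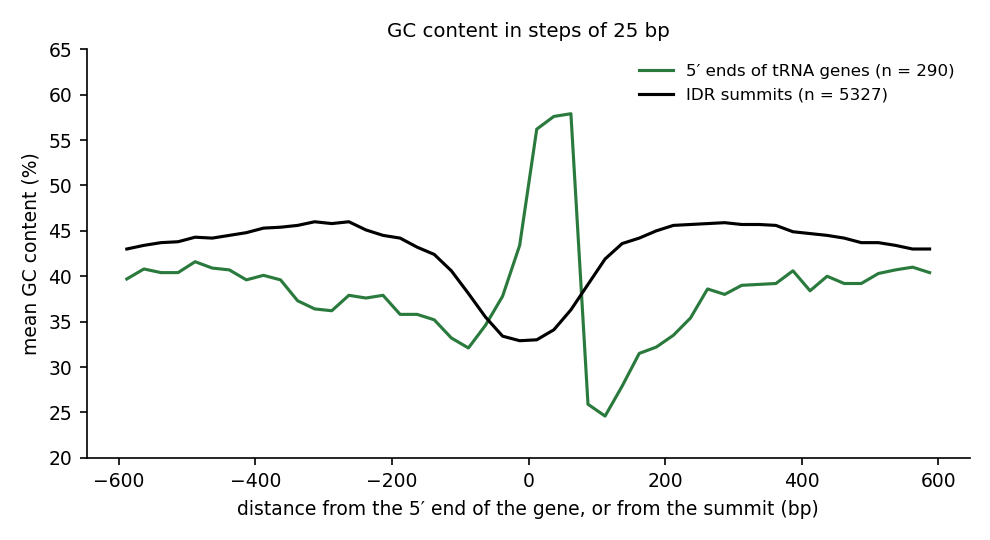
Mean GC content (%) in 25-bp steps around the 5′ ends of the 290 tRNA genes, on the gene strand, and around the 5327 IDR summits. GC reaches 57.9% inside the tRNA genes and falls to 24.6% just past them, while at IDR summits it falls to 32.9%.

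The forkhead letters were rare at summits as a whole, at tRNA genes and elsewhere. The 7 windows at tRNA genes are too few to set apart from the other IDR summits. Motifs were searched on both strands of the 101 bp around each summit. GTAAACA and ATAAACA, both forkhead-type sites, were in none of the 7 windows at tRNA genes (0.0%, interval up to 35.4), against 2.22% and 4.66% of all IDR windows. In the pooled list GTAAACA was in 0 of 41 tRNA windows and ATAAACA in 2 (4.88%), against 2.3% and 3.73% of all pooled windows. With 100 bp to either side of the summit, GTAAACA was in 1 of 7 IDR windows (14.3%, against 4.64%) and 3 of 41 pooled windows (7.32%, against 4.53%). GACGC, the core of another forkhead-type site, was in 1 of 7 windows (14.3%), at His-GTG-1-3, against 4.22%. TTTTTT was in 2 of 7 (28.6%), at Arg-TCG-3-4 and Pro-AGG-1-2, against 27.9%. The B box core GGTTCGA and the letters TATCGATA were in none of the 7, against 0.526% and 0.507% of all IDR windows. The wider B box letters GTTCNANNC were in 1 of 7 (14.3%), against 3.0%. GGTTCGA is itself in 145 of 290 tRNA genes (50%), on the gene strand, against 0.458% of 73-bp windows on either strand. With 7 windows, intervals reach past every background share, and missing letters in these windows say nothing about fd59A.

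Of the other genes transcribed by RNA polymerase III, snRNA:7SKa had an IDR summit. It was 1 of 110 such genes (5S rRNA, U6, U6atac, 7SK, 7SL, RNase P and RNase MRP RNA genes) (0.909%, interval 0.161 to 4.97, which includes the 3.85% of windows). 7SK RNA holds back the elongation factor P-TEFb. Its signal was 82.9 in replicate 2, 57.7 in replicate 3 and 165 pooled (rank 3231). The stronger of 2 summits lay inside snRNA:7SKa, 240 bp from the start of the gene. Most of the 110 are 5S rRNA genes, which stand in a repeat and had no summit in any list. The 110 genes are thus not separate sites, and their interval is too narrow. In the pooled list 2 of the 110 had a summit (1.82%). The 24 genes of spliceosomal snRNAs made by RNA polymerase II had 0 IDR summits (Wilson interval up to 13.8%, which also includes the windows' share), and 3 had a pooled summit (12.5%).

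Protein genes that serve tRNA synthesis and use had shares in the range of other protein-coding genes, 20.4%. Of the 22 genes of the RNA polymerase III machinery 4 had an IDR summit (18.2%, interval 7.31 to 38.5). Bdp1, a subunit of TFIIIB, had 243 in replicate 2, 470 in replicate 3 and 711 pooled, with the summit 111 bp from its start. Brf, another TFIIIB subunit, had 179, 318 and 501 in the same order. Polr3E, a subunit of RNA polymerase III, had 144, 241 and 390, and Polr1D, a subunit shared with RNA polymerase I, had 58.6, 68.5 and 131. Each of the 4 summits lay within 366 bp of a start site of its gene.

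Of the 20 cytosolic aminoacyl-tRNA synthetase genes, whose enzymes load tRNAs with amino acids, 7 had an IDR summit (35.0%, interval 18.1 to 56.7, which includes 20.4%). IleRS had 89.7 in replicate 2, 207 in replicate 3 and 296 pooled, SerRS 91.5, 193 and 290, and AspRS 98.1, 190 and 285. Their summits lay 135, 15 and 162 bp from a start of the gene, that of AspRS in an exon of Nmda1. The highest value, 327 pooled at alpha-PheRS, was 1863 bp from its start, in an exon of the neighbouring gene CG17982. GluProRS, ThrRS and GlyRS completed the 7, with 232, 204 and 125 pooled.

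Of the 21 matched genes for tRNA processing and modification 5 had an IDR summit (23.8%, interval 10.6 to 45.1). Tcs5, a kinase of the KEOPS complex that makes the t6A modification, had the highest value of any gene in these lists, 768 in replicate 2, 1137 in replicate 3 and 1898 pooled (rank 15 of 5327), 108 bp from its start. Dus1, a dihydrouridine synthase, had 126, 178 and 310 in the same order, in an intron of its own, 4146 bp from its start. Tgt, the queuine transferase, had 40.7, 90.2 and 129, in an exon of CG5001. RNaseZ, which trims the 3′ end of tRNAs, had 35.1, 75.4 and 121, with its summit 88 bp from its start.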

How the data were processed

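The authors deposited 4 lists used here for build dm6: regions called on each library and on the pooled alignments with a control, and pooled peaks thresholded by IDR, per the file descriptions. The signal score of each region and its −log10 q value are as the authors deposited them. No peak caller, version, IDR threshold or scaling is given by the sources, so scores were used within a list only. Sequencing depth is unknown. The dm3 lists were not used.

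Summits were taken as column 2 plus column 10 of each list. Genes were from Ensembl release 115 and sequence from RefSeq Release 6, both of the dm6 assembly, and all listed regions fell within its arm lengths. A tRNA gene counted where a summit lay within 500 bp of it, and genes less than 1 kb apart were 1 cluster. Where a summit had several tRNA genes in reach, the nearest gave its position. Background was every gene, and every non-overlapping 1073-bp window, under the same rule. Shares have Wilson and densities exact Poisson 95% intervals. No test was made, because there is 1 group, and listed regions are not replicates. The distance and cluster code was tested on simulated data.

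The members and lists were chosen with earlier results of these data known. Genes named by rule were the tRNA genes with an IDR peak, the 5 clusters with most genes, other RNA polymerase III genes with an IDR summit and the 4 strongest of each protein list. One gene that this rule names is not reported here. Tyr-GTA-1-8, Arg-TCT-3-1, other sites outside the rule and the pattern GTTCNANNC were chosen after values were seen. Of 28 symbols for tRNA processing 7 matched no gene name. Clp1 was matched as cbc, and the 7SK entry as snRNA:7SKa and snRNA:7SKb. The software was matplotlib 3.10.9, pandas 2.3.3, scipy 1.17.1 and numpy 2.4.6 under Python 3.11.15.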

Additional observations from a re-analysis of the deposited data

How the results depend on the processing

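The tRNA counts follow the distance allowed. Within 250 bp the IDR list reached 4 genes in 4 clusters (1.38% of genes, against 2.13% of 573-bp windows). The pooled, replicate 2 and replicate 3 lists reached 22, 16 and 31 genes. These were 7.59%, 5.52% and 10.7% of genes, against 11.3%, 11.0% and 11.5% of 573-bp windows. Within 1000 bp the IDR list reached 22 genes in 17 clusters (7.59% of genes, against 6.9% of 2073-bp windows), and the other lists 92, 90 and 115 genes. By overlap of the interval with the gene, the counts were 1 gene in 1 cluster for IDR, and 14, 8 and 21 genes. The stronger 2663 peaks of the IDR list left 4 genes in 4 clusters, and leaving out the 33 genes near coding starts also left 4 in 4. Limited to the 5327 strongest regions, the pooled, replicate 2 and replicate 3 lists gave 7, 8 and 12 genes. No IDR list exists for 1 library, so these single-library lists stood in for leaving out 1 replicate. They gave 8 to 12 genes and 8 to 9 clusters, and a share of summits upstream of 37.5 to 55.6%. At that length replicate 3 alone held all 7 genes and added 4 of the Cys-GCA and Lys-CTT cluster and Val-CAC-2-5, while replicate 2 alone held 6, without His-GTG-1-3. Within 1000 bp, summits reached 15 isotypes, 4 genes on 2L, 5 on 2R, 5 on 3L, 3 on 3R and 5 on X, 9 genes alone, 13 in clusters, 6 near a coding start and 16 not, and 1 spliceosomal snRNA gene. By distance from a transcript start, 3 processing genes had a summit. Chosen after seeing the data, leaving out tRNA genes with identical copies gave 0.135 pooled summits per kb within 100 bp, in place of 0.0513. In all, 42 of 78 alternatives stayed within 1.5 times the count, within the interval or, for the correlation, within a fixed change. The other 36 moved. Those that stayed included other cluster gaps, merged peaks, ranking by q value and wider motif windows. Motif intervals from 7 windows are so wide that staying within them says little. No paired analysis was possible because both samples belong to 1 group. Unknown depth, 200 to 800 bp fragments and identical copies limit what can be seen at single tRNA genes.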
